A study of Mus musculus with 63 samples.

Results

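Inhibitory interneuron markers and neuropeptide genes, 10 in all, were followed through dorsal hippocampus RNA from 63 libraries of adolescent mice. They were Gad1, Gad2, Sst, Pvalb, Vip, Npy, Cck, Calb2, Tac1 and Cnr1, taken as the rows of these 10 symbols among the 55401 genes of the deposited count table, with symbols assigned to gene identifiers by the GENCODE M21 annotation. All 10 were among the 19974 genes that passed the filter on low counts. The mice came from 2 inbred strains, DBA/2J (32 libraries) and C57BL/6J (31 libraries), and every animal had received an injection of ethanol (1.5 g/kg) or of saline. Within each strain and sex, mice were either fear conditioned (FC), a training in which a place or cue is paired with a mild shock, or left without conditioning (noFC). Crossing strain, sex, conditioning and drug gave 16 groups of 4 libraries, except FC males of C57BL/6J given saline, with 3. The strains are widely used in alcohol and learning research because they differ in both, and the design asks whether strain, acute ethanol and conditioning change hippocampal expression, separately or jointly. Each strain is 1 inbred genotype, so a strain difference cannot be assigned to any locus.

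Inhibitory interneurons are a small share of hippocampal neurons, and they set when and where pyramidal and granule cells fire. Gad1 and Gad2 encode the glutamate decarboxylases GAD67 and GAD65, which make the transmitter GABA in nearly all of them. Pvalb (parvalbumin) marks fast-spiking cells that inhibit cell bodies, Sst (somatostatin) and Npy (neuropeptide Y) are released by dendrite-targeting cells, and Vip (vasoactive intestinal peptide) marks cells that mostly inhibit other interneurons. Cck (cholecystokinin) is made by basket cells that carry the cannabinoid receptor CB1, encoded by Cnr1, but pyramidal cells transcribe Cck as well. Calb2 (calretinin) is found in interneurons that target interneurons and, in mice, in mossy cells of the dentate hilus, mainly in the ventral hippocampus. Tac1 encodes the precursor of substance P and neurokinin A. In bulk tissue, fewer cells of a type and less RNA per cell cannot be told apart, so the values below are levels of RNA in the whole dissected piece.

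The start regions of the 4 genes that differed between strains (below) are shown because they differed in pairs, Sst and Npy in one direction and Pvalb and Vip in the other. Each run is a RefSeq window of 300 bases on GRCm38.p6, from 250 bases before to 50 from the start onward, written 5' to 3' on the gene's strand. Capitals mark letters searched on both strands: the cAMP response element TGACGTCA, its first 5 letters TGACG (which every full element also contains) and the TATA box letters TATAAA. The windows are chr16:23890795-23891094 (minus strand, Sst), chr6:49822460-49822759 (plus strand, Npy), chr15:78206351-78206650 (minus strand, the Pvalb window at the annotated start of the gene) and chr10:5638968-5639267 (plus strand, Vip).
Sst: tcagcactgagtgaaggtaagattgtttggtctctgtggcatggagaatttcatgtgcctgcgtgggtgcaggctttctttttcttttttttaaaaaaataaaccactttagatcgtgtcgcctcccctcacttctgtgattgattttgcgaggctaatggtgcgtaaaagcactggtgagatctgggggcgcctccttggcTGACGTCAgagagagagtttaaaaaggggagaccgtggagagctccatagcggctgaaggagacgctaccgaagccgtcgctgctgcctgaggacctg
Npy: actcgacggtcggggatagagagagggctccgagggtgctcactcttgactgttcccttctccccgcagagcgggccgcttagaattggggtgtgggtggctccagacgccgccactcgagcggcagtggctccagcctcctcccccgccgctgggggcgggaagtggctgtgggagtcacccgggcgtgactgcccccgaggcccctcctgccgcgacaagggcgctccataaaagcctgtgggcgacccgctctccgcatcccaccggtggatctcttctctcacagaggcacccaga
Pvalb: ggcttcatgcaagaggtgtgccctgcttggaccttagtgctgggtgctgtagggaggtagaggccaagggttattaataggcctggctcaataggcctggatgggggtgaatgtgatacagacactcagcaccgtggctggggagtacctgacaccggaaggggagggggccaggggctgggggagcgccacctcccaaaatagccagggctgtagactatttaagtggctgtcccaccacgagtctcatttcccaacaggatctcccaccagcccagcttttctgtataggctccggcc
Vip: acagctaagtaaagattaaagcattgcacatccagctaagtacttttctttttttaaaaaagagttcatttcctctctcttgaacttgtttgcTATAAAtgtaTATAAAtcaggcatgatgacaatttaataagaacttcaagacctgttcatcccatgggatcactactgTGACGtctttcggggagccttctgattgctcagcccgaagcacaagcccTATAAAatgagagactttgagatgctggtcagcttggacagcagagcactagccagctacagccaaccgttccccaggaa

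With the start base counted as 0, the Sst window held the full element TGACGTCA at -48 to -41, a match found in 588 of 32851 RefSeq windows (1.79%). The Vip window held TGACG at -79 to -75 and TATAAA at 3 places, the nearest beginning at -30. TGACG stood in 20.8% and TATAAA in 13.6% of all windows. Neither set of letters stood in the Npy or the Pvalb window. RefSeq windows were matched by symbol for 9 of the 10 genes (12 windows). These matches describe the letters only. They are not sites or causes, and a window without them says nothing of the factors that bind there. The inbred strain behind the reference is C57BL/6J, and DBA/2J sequence was not analysed here.

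Library depth was 21027659 to 61631742 counts on genes (median 26379948), so each gene was covered by many reads: the lowest count of any of the 10 genes in any library was 72, for Tac1, and the highest was 14867, for Cck. No pair of libraries held identical counts, and every pair within a group differed by more than counting noise. The markers of the labelled tissue were present in every library: Prox1, the transcription factor of dentate granule cells, stood at 84.4 CPM (the count scaled by the library's effective total) or more, and Wfs1, a CA1 marker, at 116 CPM or more. Ttr, made by choroid plexus, ran from 12.3 to 9861 CPM in DBA/2J and from 15.2 to 11013 CPM in C57BL/6J. The level of this marker of a neighbouring tissue thus differed strongly between libraries of both strains, while the amount of tissue was not measured. Each strain and sex had 4 title numbers that recur across its treatment groups and whose meaning the labels do not give. The lower and the higher numbers form 2 sets, here the first and the second round, each with both strains and sexes. The labels do not say that each library is a separate animal, so p-values measure the spread between these libraries, which may in part be technical.

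Levels were compared between genes after division by gene length, as CPM per kilobase. The length was the deposited value for the gene, whatever transcripts were in use, so the order also depends on that value. Cck was highest in both strains, with medians of 183 CPM per kilobase in DBA/2J and 185 in C57BL/6J. Sst followed at 137 in DBA/2J and 170 in C57BL/6J, and the ranges of Cck and Sst overlapped in both strains. Npy came next at 58.5 in DBA/2J and 65.6 in C57BL/6J, and its range met neither that of Sst above nor that of Gad1 below. Gad1 (30.3 and 29.7), Pvalb (25.2 and 20.2), Cnr1 (23.5 and 23.2) and Gad2 (19.9 and 19.8), given for DBA/2J and then C57BL/6J, formed a run in which each gene overlapped the next. Pvalb lay above Cnr1 in DBA/2J and below it in C57BL/6J. Calb2 (7.54 in DBA/2J, 8.83 in C57BL/6J), Vip (4.31 in DBA/2J, 2.90 in C57BL/6J) and Tac1 (1.19 in DBA/2J, 1.26 in C57BL/6J) were lowest. Vip and Tac1 did not overlap in DBA/2J but did in C57BL/6J.

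Of the 10 genes, 4 differed between strains, in opposite directions for different interneuron markers. Sst and Npy were lower in DBA/2J, Pvalb and Vip were higher, and the GABA-synthesising enzymes Gad1 and Gad2 were not called. Differences are log2 values of DBA/2J minus C57BL/6J with their standard error (SE), averaged over sex, conditioning and drug, from edgeR's quasi-likelihood test with Benjamini-Hochberg adjustment over the 19974 genes. A gene passed at an adjusted p under 0.05. This contrast called 9986 of 19974 genes (50%), of which 5098 (25.5%) were higher and 4888 (24.5%) lower in DBA/2J, so 4 of 10 is no more than the share among all genes tested. The median difference over the 10 genes was 0.00, as it was for all genes (0.01).

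**Figure D1:**
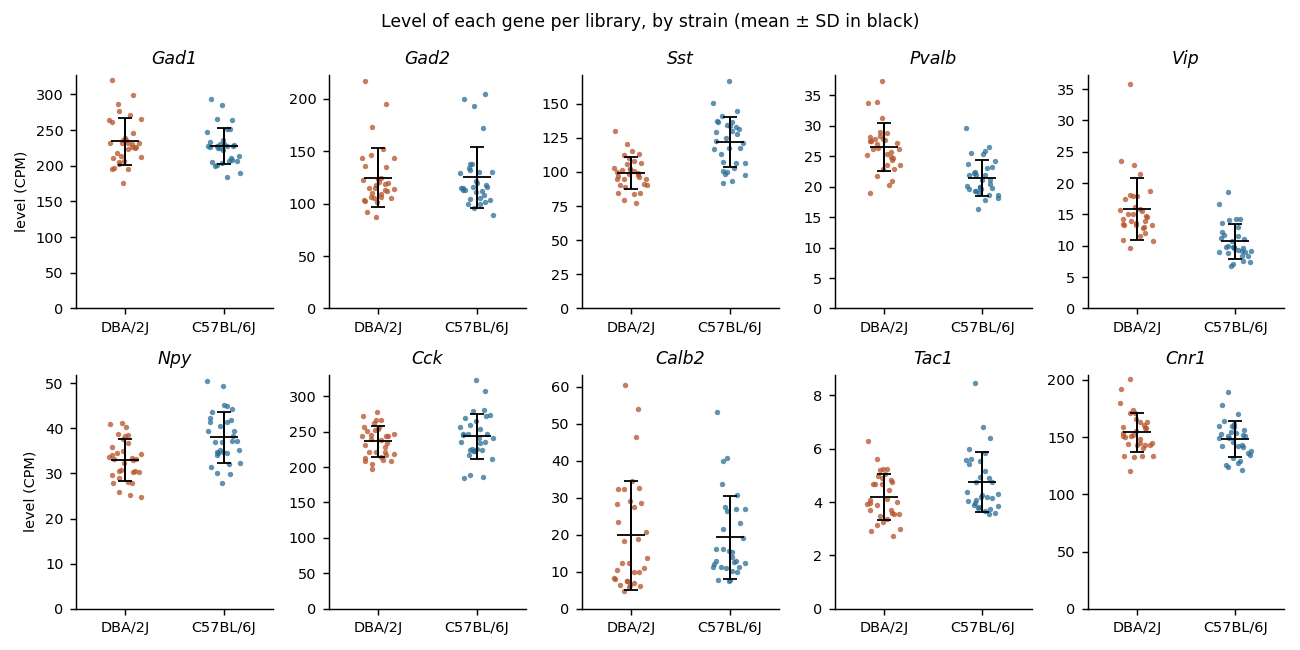
Level of each of the 10 genes in every library in CPM (vertical axes, from 0), DBA/2J (n = 32) left of C57BL/6J (n = 31), with mean and SD in black. Sst and Npy sit lower and Pvalb and Vip higher in DBA/2J, with overlap in each panel, and Calb2 spreads most, between 4.82 and 60.5 CPM.

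Sst (ENSMUSG00000004366, chromosome 16, 23889573 to 23890958, GRCm38) ran from 77.0 through a median of 98.7 to 130 CPM in DBA/2J and from 91.8 through 123 to 167 CPM in C57BL/6J. The groups overlapped, but 31 of 32 DBA/2J libraries lay below the C57BL/6J median and 9 lay below the lowest C57BL/6J library. The log2 difference was -0.29 (SE 0.05, adjusted p = 2.66e-07), or 0.818-fold. DBA/2J was lower in all 8 combinations of sex, conditioning and drug, by -0.50 to -0.14.

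Npy (ENSMUSG00000029819, chromosome 6, 49822710 to 49829507) ran from 24.8 through 33.1 to 41.3 CPM in DBA/2J and from 27.8 through 37.1 to 50.6 CPM in C57BL/6J. The groups overlapped over most of their range, with 25 of 32 DBA/2J libraries below the C57BL/6J median. The log2 difference was -0.20 (SE 0.05, adjusted p = 0.000251), again negative in all 8 combinations (-0.41 to -0.07). The ratio of Npy to Sst had a median of 0.331 in DBA/2J and 0.323 in C57BL/6J. Its mean was 0.333 ± 0.027 (SD, n = 32) in DBA/2J and 0.314 ± 0.031 (SD, n = 31) in C57BL/6J. The ranges overlapped, and this ratio was not tested.

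Pvalb (ENSMUSG00000005716, chromosome 15, 78191114 to 78206400) ran from 19.0 through 26.2 to 37.4 CPM in DBA/2J and from 16.3 through 21.0 to 29.7 CPM in C57BL/6J. The groups overlapped, while 29 of 32 DBA/2J libraries lay above the C57BL/6J median and 4 lay above every C57BL/6J library. The log2 difference was 0.30 (SE 0.05, adjusted p = 4.19e-06), or 1.23-fold, and it was positive in all 8 combinations (0.11 to 0.45).

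Vip (ENSMUSG00000019772, chromosome 10, 5639218 to 5647617) ran from 9.67 through 14.7 to 35.9 CPM in DBA/2J and from 6.77 through 9.86 to 18.6 CPM in C57BL/6J. The groups overlapped, with 31 of 32 DBA/2J libraries above the C57BL/6J median and 5 above the highest C57BL/6J library. The log2 difference of 0.55 (SE 0.09, adjusted p = 9.71e-07), or 1.47-fold, was the largest of the 10. It was positive in all 8 combinations, from 0.12 in FC males given saline to 0.84 in noFC males given saline.

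Ratios of Pvalb and Vip to Sst within a library are given as a description, with no test of their own. The ratio of Pvalb to Sst CPM ran from 0.196 through 0.270 to 0.380 in DBA/2J and from 0.126 through 0.176 to 0.224 in C57BL/6J. The ratio of Vip to Sst had medians of 0.148 in DBA/2J and 0.0862 in C57BL/6J, with ranges of 0.113 to 0.319 and 0.0525 to 0.140 in the same order. Both ratios were higher in DBA/2J at the median, and both overlapped between strains.

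Tac1 (ENSMUSG00000061762, chromosome 6, 7554879 to 7565834) ran from 2.73 through 4.04 to 6.30 CPM in DBA/2J and from 3.55 through 4.29 to 8.48 CPM in C57BL/6J. Its difference of -0.17 (SE 0.08) was negative in all 8 combinations but missed the threshold (adjusted p = 0.053). DESeq2 called it (-0.17, adjusted p = 0.049), and so did the first round alone (-0.29, adjusted p = 0.0221), against -0.07 (adjusted p = 0.616) in the second round.

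The other 5 genes did not pass. Gad1 (ENSMUSG00000070880, chromosome 2, 70553072 to 70602014) ran from 176 through 231 to 320.7 CPM in DBA/2J and from 184 through 227 to 294 CPM in C57BL/6J, a difference of 0.04 with a 95% interval of -0.04 to 0.13. Gad2 (ENSMUSG00000026787, chromosome 2, 22622205 to 22693874) ran from 87.8 through 117 to 217 CPM in DBA/2J and from 89.0 through 116 to 205 CPM in C57BL/6J, a difference of 0.00 (-0.14 to 0.14). The ratio of Gad2 to Gad1 had a median of 0.518 in DBA/2J and 0.517 in C57BL/6J. Cck (ENSMUSG00000032532, chromosome 9, 121489824 to 121495694) had medians of 239 CPM in DBA/2J and 241 CPM in C57BL/6J, a difference of -0.04 (-0.12 to 0.04). Cnr1 (ENSMUSG00000044288, chromosome 4, 33924593 to 33948831) had medians of 151 and 149 CPM in the same order, a difference of 0.06 (-0.02 to 0.14). For these 4 genes the intervals leave out a change of 0.15 log2 in either direction. Calb2 (ENSMUSG00000003657, chromosome 8, 110137502 to 110168210) had medians of 13.1 CPM in DBA/2J and 15.4 CPM in C57BL/6J and a difference of -0.00, but its interval was wide (-0.46 to 0.46).

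Within each round the 4 called genes kept their direction and their call. The first and second round gave -0.35 and -0.25 for Sst, -0.23 and -0.20 for Npy, 0.24 and 0.34 for Pvalb, and 0.44 and 0.65 for Vip. Markers of dentate granule cells also differed between strains: 6 of 8 were lower in DBA/2J and none higher (median -0.20), and their summed level ran from 431 through 696 to 931 CPM in DBA/2J and from 560 through 772 to 924 CPM in C57BL/6J, with none of the 8 at 0 in any library. With the mean of these markers as a covariate, an alternative added after the data were seen, the difference of Pvalb was 0.10 (adjusted p = 0.347) and that of Vip 0.13 (adjusted p = 0.445), so neither was called. The same covariate gave -0.44 for Sst (adjusted p = 4.65e-07), -0.31 for Npy (adjusted p = 0.000658) and -0.53 for Tac1 (adjusted p = 3.58e-05). The covariate itself follows strain, most through C1ql2 and Tdo2, and the part of granule cell content in these differences was not tested. Choroid plexus markers were called in 0 of 12 (edgeR, 1 with an unadjusted p under 0.05). Without the 16 libraries richest in them, the differences were -0.35 for Sst, -0.22 for Npy, 0.28 for Pvalb and 0.48 for Vip. Leaving these out kept only 1 library in the smallest group.

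The partners of these genes, from lists chosen with earlier results of these data known, differed between strains in 66 of 161 cases, beside 9986 of 19974 among all genes tested (50%). Of 7 genes of GABA synthesis, vesicular loading and uptake, 1 was called, and their median was 0.03. Among 15 interneuron transcription factors 6 were higher and 1 lower in DBA/2J (median 0.14), led by Npas1 (0.34, SE 0.05, adjusted p = 3.53e-09), Sox6 (0.17, SE 0.03, adjusted p = 2.47e-07) and Satb1 (0.19, SE 0.05, adjusted p = 0.00227). Sox6 and Satb1 are needed in mouse for the maturation of parvalbumin and somatostatin cells. Companion genes of parvalbumin and somatostatin cells split, with 2 of 17 higher and 2 lower (median -0.02). Nos1, the neuronal nitric oxide synthase, was higher (0.35) and the potassium channel subunit gene Kcns3 lower (-0.39). Of 14 companions of VIP, CCK and neurogliaform cells 5 were higher, among them Penk (0.36), and 3 lower, among them Lamp5 (-0.44) and the vesicular glutamate transporter gene Slc17a8 (-0.36).

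Other neuropeptide precursors gave 3 higher and 2 lower of 13 (median -0.02). Cort, which encodes cortistatin, a peptide related to somatostatin, was lower in DBA/2J by a wide margin (-1.38, SE 0.08, adjusted p = 3.4e-22). Cartpt was lower (-0.88, adjusted p = 1.79e-05) and Tac2, the precursor of neurokinin B, higher (0.43, adjusted p = 1.95e-07). Receptors for the peptides gave 1 higher and 4 lower of 13. Vipr2, a receptor for VIP, was higher (1.27, SE 0.09, adjusted p = 4.04e-19), in the same direction as Vip. The NPY receptor genes Npy2r (-0.59, adjusted p = 3.69e-14) and Npy5r (-0.18, adjusted p = 0.000258), and the somatostatin receptor gene Sstr3 (-0.22, adjusted p = 1.98e-05) were lower, in the same direction as Npy and Sst. Npy1r was the fourth lower (-0.14, adjusted p = 0.000291) and was named after its value was seen. The other somatostatin and VIP receptor genes were not called: Sstr1 (-0.19), Sstr2 (0.01), Sstr4 (0.06), Sstr5 (0.31) and Vipr1 (0.07). They too were named after their values were seen.

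Around Cnr1, 2 of 10 endocannabinoid genes were higher and 4 lower in DBA/2J (median -0.04). They were led by Ptgs2, cyclooxygenase-2 (-0.91, SE 0.05, adjusted p = 7.12e-21), the hydrolase gene Abhd12 (-0.13, adjusted p = 5.96e-07) and Napepld, a phospholipase that can make anandamide (-0.19, adjusted p = 2.54e-05). Cnr2, the second cannabinoid receptor, was higher (0.54, SE 0.16, adjusted p = 0.000541) but was at 0 in at least 1 library. Of 6 components of perineuronal nets, the matrix that wraps parvalbumin cells, 2 were higher and 3 lower. The link protein gene Hapln4 was higher (0.80, SE 0.04, adjusted p = 2.09e-22), while Ncan, neurocan (-0.32, adjusted p = 2.84e-16), and Acan, aggrecan (-0.42, adjusted p = 6.82e-07), were lower. The remaining marker lists gave 1 higher and 2 lower of 8 for CA1, 4 higher and 2 lower of 10 for CA2 and CA3, 0 higher and 1 lower of 7 for hilar mossy cells, 2 and 2 of 13 for thalamus and habenula, 3 and 1 of 9 for striatum and pallidum, and 4 and 3 of 10 for neocortex. Over all genes tested the median size of a difference was 0.10, and 0.21 among called genes.

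None of the 10 genes passed the threshold for acute ethanol in either strain. In DBA/2J edgeR called 0 of 10, DESeq2 called 0, and none had an unadjusted p under 0.05, against 59 of 19974 genes called in all (0.295%). In C57BL/6J the counts were the same, 0, 0 and 0, against 18 of 19974 genes (0.0901%). Vip had the highest difference of the interneuron peptides in both strains. In DBA/2J it ran from 11.6 through 14.9 to 35.9 CPM after ethanol and from 9.67 through 14.0 to 23.5 CPM after saline, a log2 difference of 0.16 (SE 0.13, adjusted p = 0.831). In C57BL/6J it ran from 8.32 through 10.4 to 18.6 CPM after ethanol and from 6.77 through 9.23 to 16.6 CPM after saline, a difference of 0.16 (SE 0.13, adjusted p = 1). In both strains the drug groups overlapped, and the highest ethanol library lay above all saline libraries.

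Sst ran from 77.0 through 97.1 to 120 CPM after ethanol and from 79.6 through 99.4 to 130 CPM after saline in DBA/2J, a difference of -0.04 (95% interval -0.17 to 0.09). In C57BL/6J it ran from 93.7 through 119 to 141 CPM after ethanol and from 91.8 through 130 to 167 CPM after saline, a difference of -0.06 (-0.19 to 0.07). Apart from Calb2, the differences of the 10 genes lay between -0.09 and 0.16 in both strains. The intervals of Gad1, Cck and Cnr1 stayed within 0.20 of 0 in both strains. Calb2 gave 0.12 (-0.52 to 0.77) in DBA/2J and 0.31 (-0.35 to 0.96) in C57BL/6J, so changes anywhere within those intervals are not left out. The difference of the ethanol effect between strains was tested directly: edgeR and DESeq2 called 0 of 10, none had an unadjusted p under 0.05, and 2 of 19974 genes were called in all (0.01%).

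Fear conditioning likewise called 0 of 10 in each strain, with none at an unadjusted p under 0.05 and none by DESeq2. No gene of the 19974 was called by edgeR in either strain (0%), where 670 genes in DBA/2J and 786 in C57BL/6J had an unadjusted p under 0.05, and DESeq2 called 0 and 6 genes. In DBA/2J Gad2 ran from 92.0 through 122 to 217 CPM in FC mice and from 87.8 through 113 to 195 CPM in noFC mice, a difference of 0.16 (SE 0.10, adjusted p = 1). Its levels overlapped over most of the range. Calb2 ran from 4.82 through 16.04 to 60.5 CPM in FC and from 6.18 through 11.7 to 34.5 CPM in noFC mice of DBA/2J, a difference of 0.51 (-0.13 to 1.15). In C57BL/6J it ran from 7.56 through 12.8 to 40.9 CPM in FC and from 7.66 through 15.5 to 53.2 CPM in noFC mice, a difference of -0.25 (-0.90 to 0.40). The difference of the Calb2 effect between strains, 0.76 (SE 0.46, adjusted p = 1), did not pass. Choroid plexus markers are given beside these values for the same DBA/2J mice: all 12 had a positive difference (median 1.54), 9 with an unadjusted p under 0.05 and none called by edgeR or DESeq2. Their summed level ran from 35.8 through 1194 to 11316 CPM in FC and from 42.5 through 113 to 7102 CPM in noFC mice of DBA/2J, and their median difference in C57BL/6J was -0.03. With these markers as a covariate the DBA/2J differences were 0.20 for Calb2 and 0.15 for Gad2, neither called. Without the 16 libraries richest in them, which left 1 library in the smallest group, the differences were 0.34 for Calb2 and 0.11 for Gad2. The part of this tissue in the conditioning values was not tested. The difference of the conditioning effect between strains and the difference of the ethanol effect between FC and noFC called 0 of 10 genes each by edgeR and DESeq2, none with an unadjusted p under 0.05, and 0 of 19974 genes each by edgeR (0%). None of the 161 listed partner genes passed edgeR or DESeq2 for ethanol, for conditioning or for these differences of effects, where 4 to 14 of them had an unadjusted p under 0.05 in edgeR, 14 for conditioning in DBA/2J with the 9 choroid plexus markers among them.

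**Figure D2:**
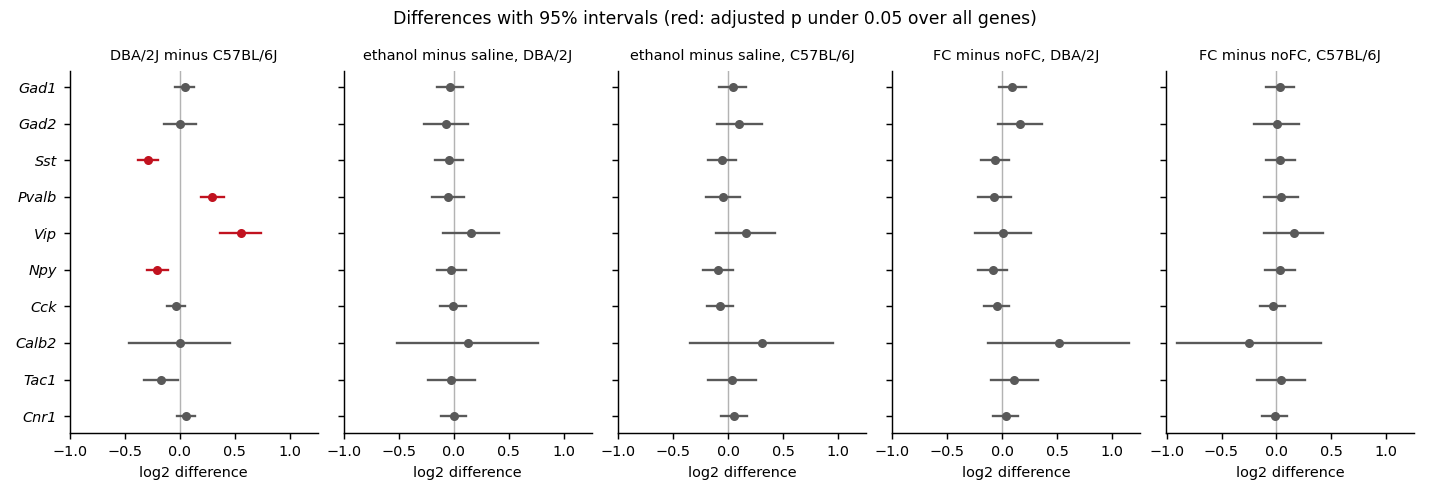
Log2 difference of each of the 10 genes (points) with its 95% interval (lines) for strain, for ethanol in each strain and for conditioning in each strain, the horizontal axis being the log2 difference. Red marks an adjusted p under 0.05: Sst, Pvalb, Vip and Npy in the strain panel and none elsewhere, and the Calb2 intervals are the widest in each panel.

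The levels of the 4 genes by strain and treatment show the same order in each treatment. Vip averaged 18.5 ± 7.53 CPM (SD, n = 8) in FC mice given ethanol, 13.5 ± 2.84 in FC mice given saline, 14.9 ± 2.89 in noFC mice given ethanol and 16.4 ± 4.31 in noFC mice given saline in DBA/2J. The C57BL/6J means in the same order of treatment were 11.6 ± 3.37 (n = 8), 10.9 ± 3.28 (n = 7), 11.1 ± 2.23 (n = 8) and 9.24 ± 2.06 CPM (SD, n = 8). The 4 DBA/2J means were all above the 4 C57BL/6J means, while the ranges of the treatments of a strain overlapped one another. The highest Vip value of all, 35.9 CPM, belonged to 1 male of the DBA/2J FC ethanol group.

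**Figure D3:**
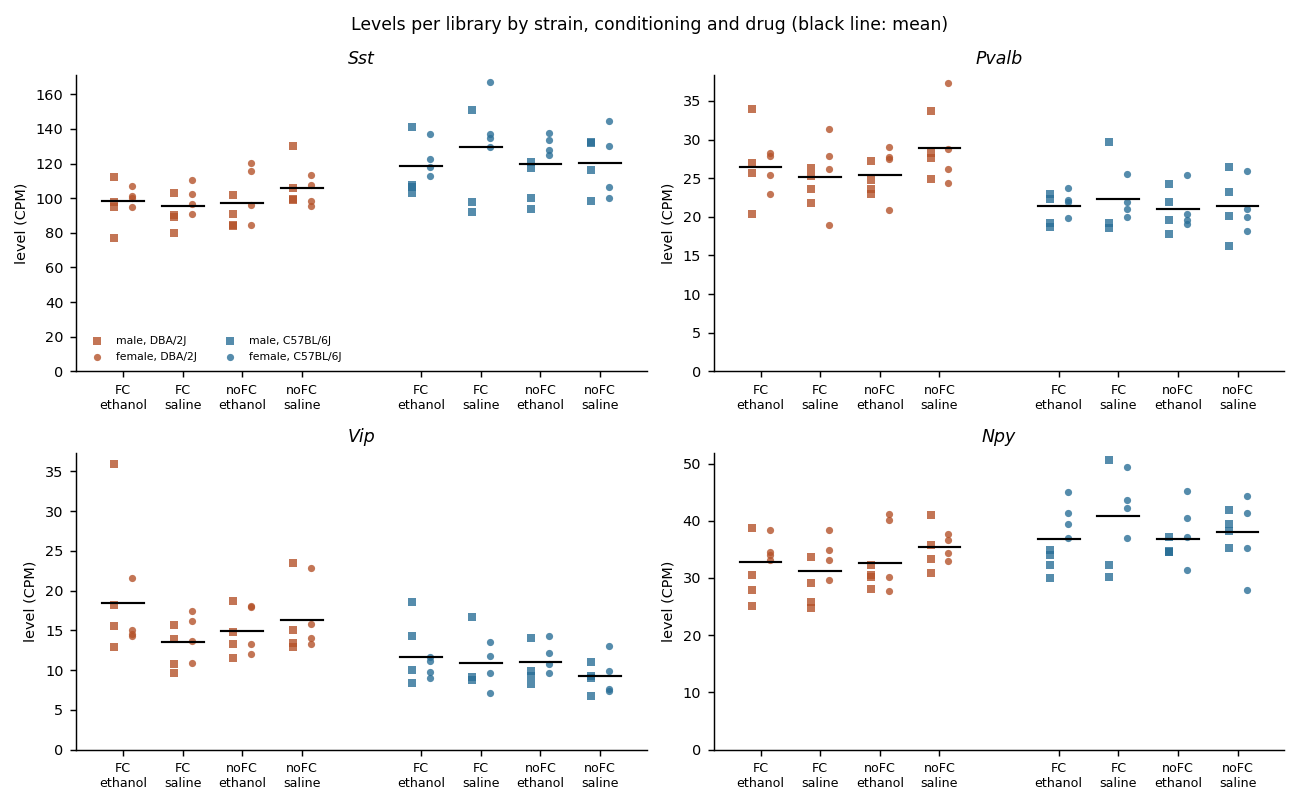
Level in CPM (vertical axes, from 0) of Sst, Pvalb, Vip and Npy in every library, by conditioning and drug, with DBA/2J left of C57BL/6J, squares for males, circles for females and black lines for means. Strain separates the means of each gene, while the libraries of the 4 treatments within a strain overlap.

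Between the sexes none of the 10 genes passed (edgeR 0 of 10, DESeq2 0 of 10), against 40 of 19974 genes (0.2%). An unadjusted p under 0.05 in edgeR was found for 2 of the 10, beside 1094 of the 19974. Npy ran from 24.8 through 33.4 to 50.6 CPM in males and from 27.8 through 37.1 to 49.4 CPM in females, a log2 difference of male minus female of -0.16 (SE 0.05, adjusted p = 0.376). Sst ran from 77.0 through 100.4 to 151 CPM in males and from 84.3 through 113 to 167 CPM in females (-0.13, SE 0.05, adjusted p = 0.555). The sexes overlapped widely for both. In the second round alone Npy passed (-0.30, adjusted p = 0.00178), and it also passed without 1 of the 3 C57BL/6J FC saline males (-0.19, adjusted p = 0.0405). The difference of the strain effect between the sexes was tested directly: 0 of 10 genes were called by edgeR or DESeq2, none had an unadjusted p under 0.05, and 0 of 19974 genes were called by edgeR (0%).

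The genes differed in how much libraries of 1 group varied. The SD within groups was 0.16 to 0.19 log2 for Gad1, Sst, Npy, Cck and Cnr1 (Gad1 0.18, Sst 0.19, Npy 0.19, Cck 0.17, Cnr1 0.16), which is near the middle of all genes, from the 49.6th to the 55.6th percentile. Pvalb (0.22), Gad2 (0.29), Tac1 (0.30) and Vip (0.37) varied more. Calb2 stood apart at 0.98 log2, the 98.7th percentile of all genes, and its highest library exceeded its lowest 12.5-fold in DBA/2J and 7.04-fold in C57BL/6J. The highest Calb2 levels were 60.5 CPM in a DBA/2J male of the FC saline group, 54.2 CPM in a DBA/2J male of the FC ethanol group and 53.2 CPM in a C57BL/6J female of the noFC ethanol group, so these 3 libraries were of both strains and both sexes.

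The genes whose levels followed each of the 10 most closely were found from Pearson correlations of log2 CPM over the 63 libraries after subtraction of group means, given here as a description. Calb2 was most like Samd3 (r = 0.94), Ebf3 (0.92), a transcription factor gene of the early B-cell factor family, and Ctxn3 (0.91), all of low level, with up to 4.85, 8.46 and 15.7 CPM. Gad2 was most like Zcchc12 (0.92), the vesicular GABA transporter gene Slc32a1 (0.91) and the dopamine receptor gene Drd2 (0.91), and Gad1 was most like Gad2 (0.89), Ankrd34b (0.88) and Tmem130 (0.85). Vip was most like Satb1 (0.94), Rims4 (0.87) and Rnf227 (0.86). Cck varied with the calmodulin gene Calm3 (0.90) and with Kcnab2 (0.87).

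Cnr1 followed Rab3c (0.89) and the sodium channel gene Scn1a (0.83). Sst followed Cend1 (0.81), Stmn3 (0.80) and Ckmt1 (0.80), and Npy followed Sst itself (0.74), Crhbp (0.74), which binds corticotropin-releasing hormone, and Lypd6 (0.74). Pvalb followed Bcl2l2 (0.82), Efhd2 (0.78) and Nxph3 (0.78), and Tac1 followed Ldb2 (0.77), Nap1l5 (0.75) and Gabra3 (0.73). The median correlation of the 10 genes with all genes tested was between -0.02 and 0.01. The number of genes with r over 0.7 was 214 for Cck, 145 for Vip, 132 for Gad2 and 114 for Calb2, against 9 for Npy and 6 for Tac1.

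**Figure D4:**
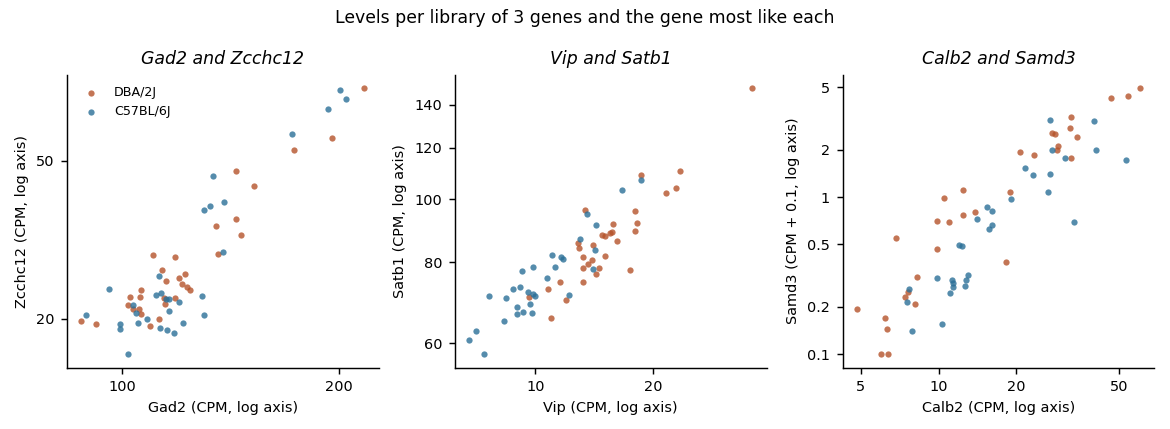
Levels per library of Gad2, Vip and Calb2 (horizontal log axes, CPM) against the gene most like each (vertical log axes, CPM, with 0.1 added for Samd3), in DBA/2J and C57BL/6J. The points of each strain rise together in each panel, the strains being offset for Vip and Satb1, and Calb2 covers the widest range, 4.82 to 60.5 CPM.

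Calb2 also moved with markers of tissue outside the hippocampus proper. Its correlation with the mean of 13 thalamus and habenula markers was 0.77 in DBA/2J (rho 0.79, permutation p = 2e-05 for each, adjusted p = 0.00053 over 320 pairs of gene, list and strain) and 0.72 in C57BL/6J (rho 0.67, permutation p = 0.00031 and 0.00099, adjusted p = 0.0032). Without the 2 libraries farthest from the median of Calb2 it was 0.78 and 0.66 in the same order. The summed level of these markers ran from 174 through 216 to 326 CPM in DBA/2J and from 194 through 211 to 334 CPM in C57BL/6J, and none of the 13 was at 0 in any library. With 8 CA1 markers Calb2 ran the other way, r = -0.52 in DBA/2J (rho -0.52, permutation p = 0.014 and 0.012, adjusted p = 0.045) and -0.86 in C57BL/6J (rho -0.83, permutation p = 1e-05 for each, the smallest the permutations can give, adjusted p = 0.00046). Cck showed the reverse of Calb2, with r = 0.72 in DBA/2J and 0.85 in C57BL/6J for CA1 markers and r = -0.67 in DBA/2J and -0.71 in C57BL/6J for thalamus and habenula markers (rho 0.74 and 0.83, then -0.63 and -0.64, adjusted p of r from 0.00053 to 0.0057). Gad2 followed striatum and pallidum markers, 0.75 in DBA/2J and 0.81 in C57BL/6J (rho 0.71 and 0.79, permutation p = 2e-05 and 0.00019, adjusted p = 0.00053 and 0.0023). Vip fell off against CA2 and CA3 markers, -0.84 in DBA/2J and -0.70 in C57BL/6J (rho -0.73 and -0.73, permutation p = 1e-05 and 0.00024, adjusted p = 0.00046 and 0.0027). Sst ran against choroid plexus markers, -0.57 in DBA/2J and -0.73 in C57BL/6J (rho -0.56 and -0.72, permutation p = 0.00046 and 0.0003, adjusted p = 0.0041 and 0.0032). In all, 108 of the 320 correlations passed, and 33 pairs of gene and list passed in both strains. Markers of striatum and choroid plexus were above 0 in every library, and the part of dissection in these relations was not tested. Without the 12 libraries highest in the 3 genes most like Calb2 (9 of DBA/2J, 3 of C57BL/6J), the Calb2 strain difference was -0.43 (adjusted p = 0.097), against -0.00 with all libraries. These libraries were picked by genes that follow Calb2, and most were of DBA/2J, so a lower DBA/2J value follows from the choice. No strain difference of Calb2 is read from it.

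Among the 10 genes themselves, levels of some pairs varied together across libraries. Of 90 correlations (45 pairs in each strain) 32 passed at an adjusted p under 0.05 over the 90, by permutation with 100000 resamples. In DBA/2J 16 were positive and 1 negative, and in C57BL/6J 12 were positive and 3 negative. In both strains 10 pairs passed, each with the same sign. They included Sst with Cck and with Cnr1, Npy with Cck, and Pvalb and Vip each with Tac1. Pvalb and Npy, whose strain differences had opposite signs, were also among them. This pair gave r = 0.65 in DBA/2J (rho 0.66, permutation p = 0.00038 and 0.00021, adjusted p = 0.0026) and 0.62 in C57BL/6J (rho 0.64, permutation p = 0.0045 and 0.0013, adjusted p = 0.018). Gad1 and Gad2 gave r = 0.94 in DBA/2J (rho 0.93, permutation p = 1e-05 for each, adjusted p = 0.0009) and 0.83 in C57BL/6J (rho 0.87, permutation p = 3e-05 and 2e-05, adjusted p = 0.0009). Sst and Npy gave 0.75 in DBA/2J (rho 0.67, permutation p = 0.00051 and 0.0017, adjusted p = 0.0031) and 0.74 in C57BL/6J (rho 0.74, permutation p = 0.00019 and 9e-05, adjusted p = 0.0021). Pvalb and Vip gave 0.75 in DBA/2J (rho 0.79, permutation p = 6e-05 and 1e-05, adjusted p = 0.0011) and 0.70 in C57BL/6J (rho 0.72, permutation p = 0.00031 and 0.00028, adjusted p = 0.0025).

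Cck and Calb2 were the pair with a negative correlation that passed in both strains, -0.66 in DBA/2J (rho -0.68, permutation p = 0.00032 and 0.00024, adjusted p = 0.0025) and -0.70 in C57BL/6J (rho -0.66, permutation p = 0.00024 and 0.00063, adjusted p = 0.0024). Correlations were also taken without the 2 libraries farthest from the median of the first gene named, given for DBA/2J and then C57BL/6J. Gad1 with Gad2 gave 0.92 and 0.79, Sst with Npy 0.68 and 0.69, and Pvalb with Vip 0.75 and 0.68. Pvalb with Npy gave 0.58 and 0.50, and Cck with Calb2 -0.64 and -0.63. The second gene of a pair played no part in that choice of libraries. Other pairs passed in 1 strain. Vip and Npy gave 0.77 in DBA/2J (rho 0.78, permutation p = 5e-05 and 3e-05, adjusted p = 0.0011) and 0.41 in C57BL/6J (rho 0.41, permutation p = 0.079 and 0.054, adjusted p = 0.14). Npy and Cnr1 gave 0.76 in DBA/2J (rho 0.69, permutation p = 9e-05 and 0.00081, adjusted p = 0.0013) and 0.32 in C57BL/6J (rho 0.36, permutation p = 0.11 and 0.086, adjusted p = 0.17). Gad2 and Calb2 gave 0.41 in DBA/2J (rho 0.39, permutation p = 0.059 and 0.057, adjusted p = 0.12) and 0.77 in C57BL/6J (rho 0.69, permutation p = 0.00048 and 0.0012, adjusted p = 0.0031). Whether correlations differ between strains was not tested.

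**Figure D5:**
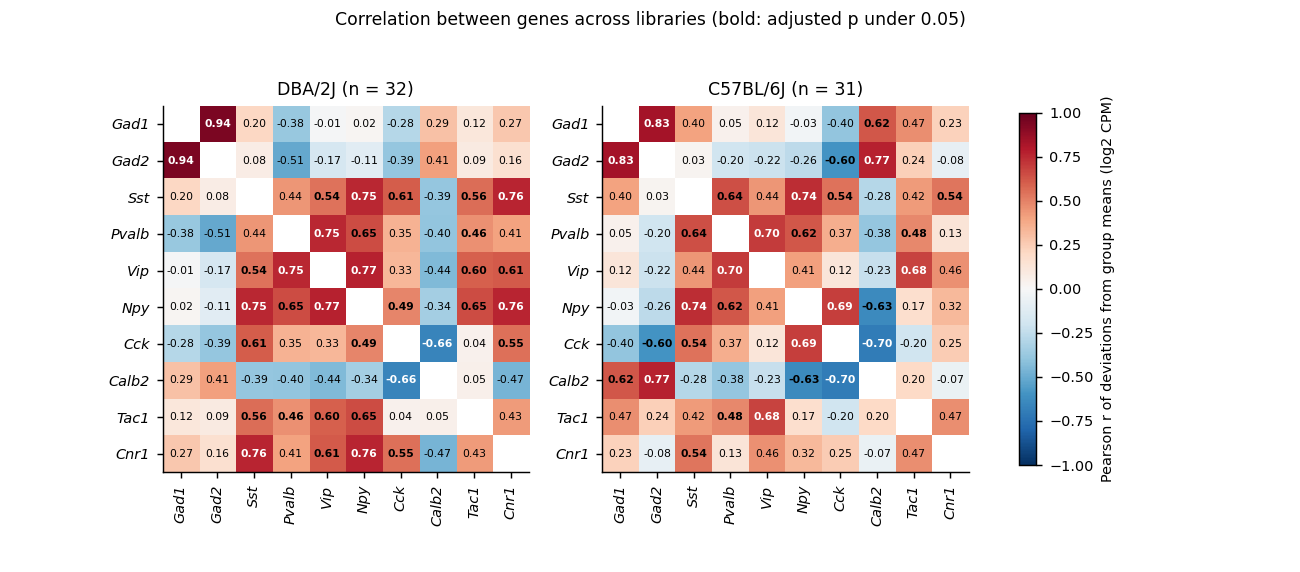
Pearson correlation between each pair of the 10 genes across libraries after subtraction of group means (log2 CPM), DBA/2J (n = 32) left and C57BL/6J (n = 31) right, colour giving r and bold an adjusted p under 0.05. Gad1 with Gad2, Sst with Npy, Pvalb with Vip and Pvalb with Npy are among the pairs positive in both strains, and Cck with Calb2 is negative in both.

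The share of a gene's estimated counts on each transcript could be tested for 4 of the 10 genes, and none differed between strains at the threshold (limma diffSplice), where 2443 of 9512 genes did (25.7%). The 6 other genes did not have more than 1 transcript above the limits on transcript counts. Cck came closest (unadjusted p = 0.0361, adjusted p = 0.113): Cck-201 held 53.0 ± 3.08% of the estimated counts (SD, n = 32) in DBA/2J and 55.8 ± 3.75% (SD, n = 31) in C57BL/6J, with Cck-203 and Cck-205 next. Cck passed in 3 of the 16 fits that left out the libraries of 1 title number. In Gad1 most estimated counts lay on Gad1-206, annotated as a processed transcript without a coding frame, at 64.0% in DBA/2J and 63.9% in C57BL/6J, and 31.5% and 31.8% in the same order on the coding Gad1-201. Tac1-205 held 77.5% of the Tac1 counts in DBA/2J and 78.0% in C57BL/6J. Cnr1-201 held 91.1% of the Cnr1 counts in DBA/2J and 91.3% in C57BL/6J.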

How the data were processed

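Poly(A) RNA of dorsal hippocampus was sequenced from one end with a stranded kit, per the labels' protocols. The authors deposited whole-number read counts per gene (55401 genes, 63 libraries) and estimated counts per transcript. The tools named, per the submitters' processing notes, were HISAT2, featureCounts, Salmon, fastp and DESeq2, with the build GRCm38 and without versions. Of the gene identifiers, 55141 matched GENCODE M21.

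The 10 genes, the lists of partner and marker genes and the tests were chosen with earlier results of these data known. Genes were filtered with filterByExpr (minimum count 10). The 19974 genes left held 99.95% of all counts and were scaled by TMM factors (0.959 to 1.05). Contrasts of the 16 group coefficients, weighted equally over the factors not compared, were tested in R 4.3.3 with edgeR 4.0.16 (quasi-likelihood, two-sided, prior count 2), adjusted by Benjamini and Hochberg over all genes tested, with 0.05 as the threshold. The standard error combines the fit's information with the moderated dispersion. Transcript usage was tested with limma 3.58.1 (voom, diffSplice, Simes p) on rounded estimated counts, for transcripts with 10 counts in at least 3 libraries and 5% of their gene's counts. Correlations were two-sided permutation tests within strain (100000 resamples). The rule for naming took all 10 genes, up to 4 called genes with the smallest p per list, and the 3 genes most like each of the 10, without Gm and Rik symbols; some genes this rule names are not reported here. The fits were tested on simulated data. Alternatives were DESeq2 1.42.0, other scaling, no filter, transcript sums, title rounds, a replicate block, tissue markers as covariates, and leaving out libraries. The covariates of neocortex, dentate gyrus, CA1 and CA2 and CA3 markers and the 2 sets of libraries left out were added after the data were seen. Intervals are at 95%, and depth limits low genes such as Tac1 most.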

Additional observations from a re-analysis of the deposited data

Results flagged for a closer look

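In groups of 4 libraries, a library was listed when its gap to the nearest other passed Dixon's critical value as a share of the group's range. This happened in 12 of 150 sets of gene and group, and chance gives about 1 in 20. No cause was tested. Calb2 stood high in 3 libraries. It was 28.7 CPM in 1 female DBA/2J FC ethanol library, where the others held 9.86 to 12.5 CPM. It was 40.9 CPM in 1 female C57BL/6J FC saline library (others 7.56 to 12.8) and 27.5 CPM in 1 male C57BL/6J noFC saline library (others 11.4 to 13.0). In the same female C57BL/6J FC saline library Gad2 was also high, at 193 CPM (others 113 to 121). Gad1 was low in 1 male DBA/2J FC saline library, at 203 CPM (others 265 to 277), and in 1 male C57BL/6J noFC saline library, at 211 CPM (others 226 to 228). A male C57BL/6J FC ethanol library was high in Sst, at 141 CPM (others 103 to 108), and in Tac1, at 8.48 CPM (others 3.55 to 4.19). Tac1 was high in 1 female C57BL/6J FC ethanol library, at 5.83 CPM (others 3.88 to 4.14), and low in 1 female C57BL/6J FC saline library, at 4.25 CPM (others 5.42 to 5.62). Vip was 21.5 CPM in 1 female DBA/2J FC ethanol library (others 14.3 to 15.1), and Npy was 37.1 CPM in 1 male C57BL/6J noFC ethanol library (others 34.5 to 34.7).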

How the results depend on the processing

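The strain calls of Sst and Npy held under all 17 alternatives and with each of the 63 libraries left out, and so did those of Pvalb and Vip except with dentate gyrus markers as a covariate (0.10 and 0.13). Under these alternatives 3 to 5 of the 10 genes were called, and 4 to 5 when 1 library was left out. Tac1 was called in 7 of 17 alternatives (-0.53 to -0.07) and in 20 of the 63 fits that left out a library (-0.20 to -0.12), and Cnr1 in 1 (0.10). The cause was not tested. For ethanol, conditioning and the differences of effects, 0 genes were called in every alternative and with each library left out. For sex, 1 gene (Npy) was called in the second round alone, and 0 to 1 when a library was left out. Transcript usage called 0 genes, and 0 to 1 when the libraries of a title number were left out. Of the 90 correlations 32 passed, 27 without the 2 libraries farthest from the median of the pair's first gene and 28 with choroid plexus markers regressed out. The labels do not say what a shared title number means, and it was not used to pair libraries because not every pair had a correlation of deviations over 0.1: 32 of 93 same-number pairs within a strain and sex did (median 0.04, highest 0.48), and 29 of 63 libraries were closest to their own number, a hint from the data that some share more than a number. With the number as a replicate block, 0 of the 10 genes were called for ethanol and for conditioning in each strain, while ethanol in DBA/2J called 109 genes of all tested against 59 without it. Each number belonged to 1 strain and sex, so this block could not be used for the strain or sex contrasts. Their p-values treat the 63 libraries as independent, and none of the 17 alternatives for strain took a shared number into account. No alternative moved the median of all genes by more than 0.02 in the strain contrast. Every gene had at least 72 counts per library, and the spread of Calb2 between libraries leaves its intervals wide.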
